A study of Mus musculus with 24 samples.

Results

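Rrad, Gabpb1, Med11, Sdhaf1, Pex16, Prdx6, Rap2b and Dyrk3 are 8 genes whose RNA differed between LCL161-treated and vehicle-treated mice in at least 1 sorted cell population, and none of them is among the 24 genes listed here for the NF-kB circuit on which this drug acts. They were picked because of that difference, out of 55025 gene symbols in the count table, of which 20174 passed the filter on low counts and were tested. All 8 passed it. The LCL161 values of the 8 genes are therefore given as a description and carry no test. The 8 genes are tested for tissue and lineage, averaged over both treatments. These averages played no part in the choice, but they use the same libraries. Where the LCL161 change differs between the groups compared, the average carries part of that difference. Differences within LCL161 or vehicle libraries alone are printed beside those tests with their p-values. They share values with the choice of the members, so they only describe and are no independent test.

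Cells that were CD45+CD4+ or CD45+CD8+ were sorted from tumors and spleens of TCRα-/- mice for RNA sequencing, and every group, vehicle included, has this genotype, a disruption of the T cell receptor alpha chain. The mice carried M8 organoids implanted in the pancreas as tumors. The groups were tumor CD4 LCL161, tumor CD4 vehicle, tumor CD8 LCL161, tumor CD8 vehicle, spleen CD4 LCL161, spleen CD4 vehicle, spleen CD8 LCL161 and spleen CD8 vehicle, with 3 libraries each and 24 in all. LCL161 mice received 75 mg/kg by mouth at intervals of 3 days from day 4, which came to 3 doses by harvest on day 12, and control mice received vehicle. The labels give no age, and no wild-type or tumor-free group was analysed here. The labels do not say whether the 3 libraries of a group came from separate mice, so each p-value measures the spread between libraries. In bulk RNA, fewer cells that express a gene and less RNA per cell cannot be told apart.

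LCL161 mimics the mitochondrial protein SMAC and causes the ubiquitin ligases cIAP1 and cIAP2 to be degraded. Without them the kinase NIK accumulates, the precursor of NF-kB2 is processed, and RelB complexes enter the nucleus, which is the non-canonical NF-kB pathway. In T cells this pathway works downstream of costimulatory receptors of the TNF receptor family. The 8 genes are described here by other functions, and whether they also act in this pathway was not tested. Rrad and Rap2b are small GTPases, Gabpb1 and Med11 belong to the transcription machinery, Sdhaf1 serves the mitochondrial respiratory chain, Prdx6 and Pex16 serve peroxide removal and peroxisomes, and Dyrk3 is a protein kinase.

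Promoter sequence was available for 6 of the 8 genes from RefSeq (GRCm38.p6), from 250 bases before to 50 bases after the start that RefSeq gives. For Sdhaf1 and Rap2b these windows lie inside the single exon that GENCODE M21 gives, whose start is farther upstream. The windows of the only member that was lower with LCL161 and of both members whose window held a kappaB match are shown, because they put the lower gene beside the matches. Capitals mark matches to a kappaB-type motif (GGGANNNNCC) or an ETS motif (CCGGAAG), searched on both strands.
Rap2b (chr3:61364257-61364556, plus strand): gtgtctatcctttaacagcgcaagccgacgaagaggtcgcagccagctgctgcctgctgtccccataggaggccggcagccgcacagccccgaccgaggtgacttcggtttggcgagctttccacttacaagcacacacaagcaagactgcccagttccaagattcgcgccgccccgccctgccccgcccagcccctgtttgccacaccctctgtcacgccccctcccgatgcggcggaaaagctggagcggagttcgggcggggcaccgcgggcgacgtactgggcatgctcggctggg
Sdhaf1 (chr7:30322326-30322625, minus strand): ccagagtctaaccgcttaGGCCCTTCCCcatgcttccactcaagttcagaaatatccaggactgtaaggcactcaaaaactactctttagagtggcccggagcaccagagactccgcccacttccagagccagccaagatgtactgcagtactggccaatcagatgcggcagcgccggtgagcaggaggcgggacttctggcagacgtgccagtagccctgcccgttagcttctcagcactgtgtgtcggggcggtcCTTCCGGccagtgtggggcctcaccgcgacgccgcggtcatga
Dyrk3 (chr1:131138185-131138484, minus strand): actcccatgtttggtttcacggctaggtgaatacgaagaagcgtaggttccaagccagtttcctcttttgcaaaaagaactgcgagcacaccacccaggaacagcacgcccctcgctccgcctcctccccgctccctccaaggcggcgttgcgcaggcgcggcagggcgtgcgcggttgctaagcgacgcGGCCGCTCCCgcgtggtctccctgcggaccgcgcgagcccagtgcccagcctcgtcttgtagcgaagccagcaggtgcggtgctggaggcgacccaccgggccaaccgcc
With the start base counted as 1, the base before it as -1 and no position 0, Sdhaf1 held 1 kappaB-type match at -232 and 1 ETS match at 8. Dyrk3 held 1 kappaB-type match at -60. No match was found in the windows of Rap2b, Med11, Gabpb1 (2 windows) or Pex16 (2 windows), and neither the AP-1 motif TGANTCA nor the CRE motif TGACGTCA occurred in any window of the 6 genes. Over 32851 RefSeq mouse promoters of the same length, 20.7% held the kappaB-type motif, 8.86% the ETS motif, 7.81% the AP-1 motif and 1.79% the CRE motif. These are matches of letters and not binding sites.

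Library totals ran from 15455728 to 25145426 expected counts. Levels are in CPM, counts scaled to one fixed total, on library sizes adjusted by TMM, the trimmed mean of M-values. Sorting left the sorted marker in place: Cd4 was at 688 to 1430 CPM in CD4-sorted libraries and 7.07 to 31.7 CPM in CD8-sorted ones, and Cd8a was at 565 to 1160 CPM in CD8-sorted libraries and at most 3.98 CPM in CD4-sorted ones. Trac, the gene of the deleted receptor chain, was read at 9.3 to 35.5 CPM in CD8-sorted and 63.2 to 1080 CPM in CD4-sorted libraries, and because the labels do not say which part was deleted, this checks nothing. Fold changes are log2 of LCL161 over vehicle with their standard error from the model of all 24 libraries.

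LCL161 libraries were higher than vehicle libraries for 7 of the 8 genes and lower for 1, Rap2b, in all 4 populations by the sign of the fitted change. Rrad, Gabpb1, Med11, Sdhaf1 and Pex16 had every LCL161 library above every vehicle library in each of the 4 populations, a pattern held by 96 of the 20174 tested genes (0.476%). Rap2b had every LCL161 library below every vehicle library in each population, a pattern held by 37 tested genes (0.183%). In spleen CD4 cells 5 members lay above without overlap, 1 lay below and 2 overlapped, where 7.67% of all tested genes lay above and 6.9% below. In each other population 7 members lay above and 1 below. Over all tested genes the shares above and below were 21.1% and 17.8% in spleen CD8, 7.14% and 8.09% in tumor CD4, and 11.6% and 11.9% in tumor CD8. The choice of members set these counts. The median change of the 8 genes was 0.59 in spleen CD4, 0.79 in spleen CD8, 0.69 in tumor CD4 and 0.93 in tumor CD8, against a median over all tested genes of 0.02, 0.06, -0.01 and 0.00.

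**Figure D1:**
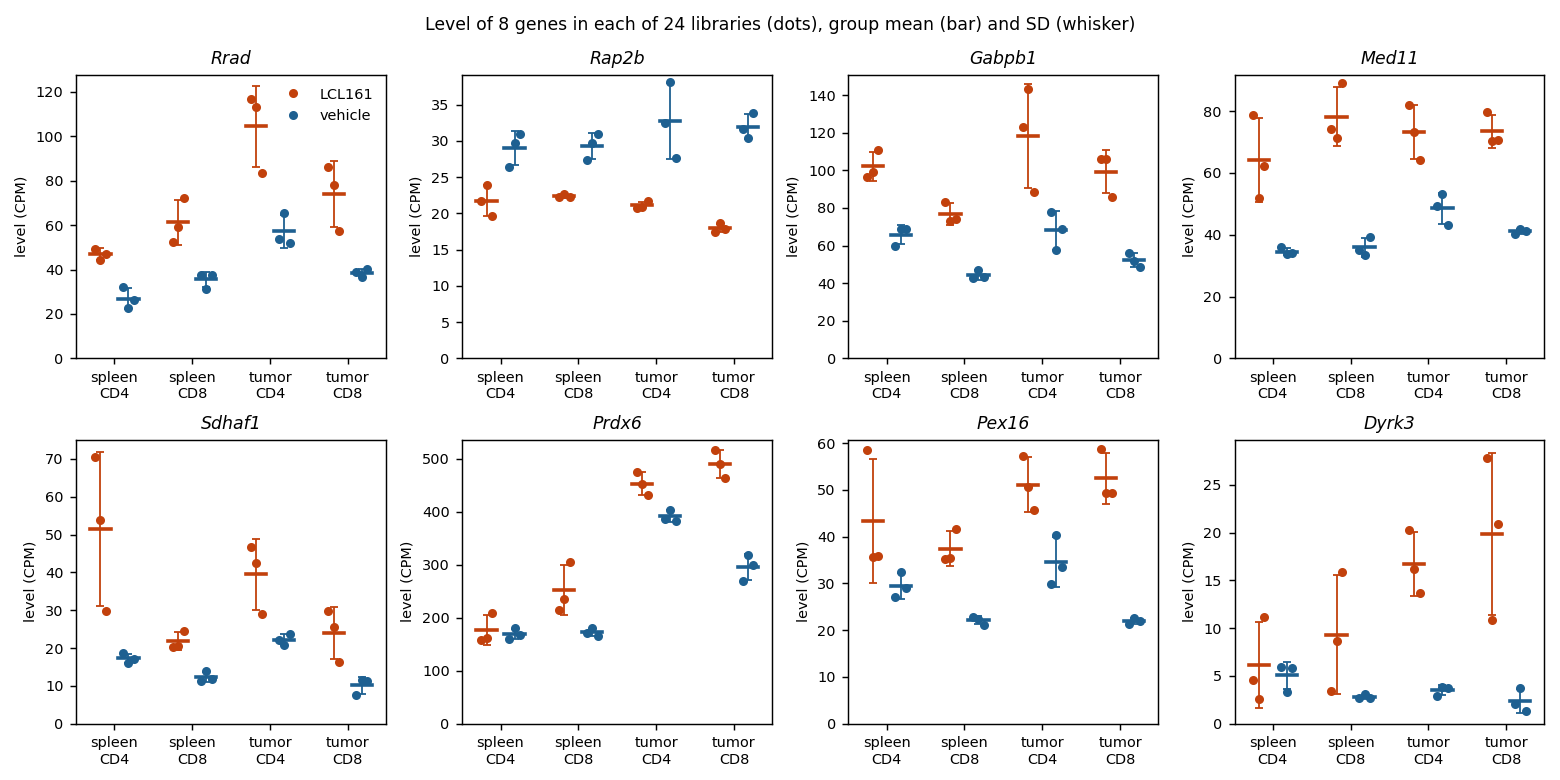
Level of each of the 8 genes in CPM (linear axes from 0) in 24 libraries, by sorted population, with LCL161 to the left of vehicle; dots are libraries, bars the mean of 3 and whiskers the SD. LCL161 dots of Rap2b, at 17.4 to 23.9 CPM, lie below every vehicle dot, at 26.4 to 38.1 CPM, while the other 7 genes are higher with LCL161 in most panels.

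Rrad encodes a GTPase of the RGK family, best known for reducing the activity of voltage-gated calcium channels in heart and muscle. It lies at chr8:104628070-104631327 on the minus strand (GRCm38, GENCODE M21). Values below run over replicates 1, 2 and 3. Rrad was at 49.4, 44.3 and 47.1 CPM in spleen CD4 LCL161 libraries, against 32.1, 22.6 and 26.2 CPM with vehicle. In spleen CD8 cells it was at 52.6, 59.0 and 72.4 CPM with LCL161, against 37.5, 31.4 and 37.7 CPM with vehicle. In both spleen populations the lowest LCL161 library stood above the highest vehicle library. In tumor CD4 cells Rrad was at 117, 113 and 83.5 CPM with LCL161, against 53.9, 65.6 and 52.0 CPM with vehicle. Tumor CD8 cells had 86.3, 78.3 and 57.4 CPM of Rrad with LCL161, against 38.7, 36.6 and 40.2 CPM with vehicle. The tumor groups did not overlap either, and replicate 3 was the lowest LCL161 library in both tumor populations. The fitted changes of Rrad were close to each other in size, at 0.80 ± 0.17 in spleen CD4, 0.79 ± 0.17 in spleen CD8, 0.87 ± 0.17 in tumor CD4 and 0.94 ± 0.17 in tumor CD8 (log2, ± SE, n = 3 each). Across the 8 groups the highest mean was in tumor CD4 LCL161, at 104 ± 18.1 CPM (SD), and the lowest in spleen CD4 vehicle, at 27.0 ± 4.8 CPM. Of the 7 neighbouring pairs in that order, only tumor CD4 vehicle and spleen CD4 LCL161, and spleen CD4 LCL161 and tumor CD8 vehicle, did not overlap.

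Rap2b encodes a GTPase of the Ras superfamily whose RAP2 group acts through the kinases Tnik, Mink1 and Map4k4. It lies at chr3:61361638-61368430 on the plus strand and is annotated as a single exon. Rap2b was the one member lower with LCL161. It was at 21.7, 23.9 and 19.7 CPM in spleen CD4 LCL161 libraries, against 26.4, 29.7 and 31.0 CPM with vehicle. Spleen CD8 cells had 22.3, 22.6 and 22.2 CPM with LCL161, against 27.4, 29.7 and 30.9 CPM with vehicle. The 3 spleen CD8 LCL161 libraries had an SD of 0.203 CPM. Rap2b was at 20.8, 20.9 and 21.7 CPM in tumor CD4 cells with LCL161, against 32.5, 38.1 and 27.6 CPM with vehicle. In tumor CD8 cells it was at 17.4, 18.6 and 17.9 CPM with LCL161, against 31.6, 30.4 and 33.8 CPM with vehicle. All 12 LCL161 libraries, whatever the tissue and lineage, therefore stood below all 12 vehicle libraries. This held for 5 tested genes, Rap2b included (0.0248%), and the reverse, all LCL161 above all vehicle, held for 8 (0.0397%), none of them a member. The changes of Rap2b were -0.42 ± 0.11, -0.39 ± 0.11, -0.63 ± 0.11 and -0.83 ± 0.11 in CD4 and CD8 cells of the spleen, then CD4 and CD8 cells of the tumor. Vehicle was 1.33, 1.31, 1.55 and 1.78 times LCL161 in that order.

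Among 23 other genes for RGK and Rap GTPases, their regulators and effectors, none passed the test in spleen CD4, tumor CD4 or tumor CD8 cells. In spleen CD8 cells none rose and 2 of 23 fell, where 8.28% of all tested genes passed in either direction. Sipa1l3, a member of the family of Rap-inactivating proteins, fell to 7.12 ± 1.1 CPM with LCL161, against 35.1 ± 2.89 CPM with vehicle (log2 -2.30 ± 0.29, adjusted p = 0.000233, edgeR's quasi-likelihood test with Benjamini-Hochberg adjustment, n = 3 each). Mink1, the effector kinase, fell to 7.78 ± 2.61 CPM, against 26.0 ± 3.74 CPM with vehicle (log2 -1.74 ± 0.37, adjusted p = 0.0093, same edgeR test). The median change of the list was -0.17, -0.47, 0.05 and -0.39 in CD4 and CD8 cells of the spleen, then CD4 and CD8 cells of the tumor.

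Gabpb1 encodes the beta subunit of GABP, an ETS-family transcription factor that drives nuclear genes for mitochondrial proteins. It lies at chr2:126627442-126676337 on the minus strand. Its level was 96.3, 99.3 and 111 CPM in spleen CD4 LCL161 libraries, against 59.9, 68.8 and 68.7 CPM with vehicle. Spleen CD8 cells had 83.4, 72.8 and 74.3 CPM of Gabpb1 with LCL161, against 42.6, 47.1 and 43.2 CPM with vehicle. The vehicle libraries of spleen CD8 were the lowest of all for this gene. Tumor CD4 cells had 123, 143 and 88.6 CPM with LCL161, against 77.7, 57.4 and 68.9 CPM with vehicle. In tumor CD8 cells Gabpb1 was at 106, 106 and 85.9 CPM with LCL161, against 56.1, 52.0 and 48.8 CPM with vehicle. No population overlapped between treatments, and replicate 3 was again the lowest LCL161 library of both tumor populations. The changes were 0.63 ± 0.15, 0.79 ± 0.15, 0.80 ± 0.15 and 0.93 ± 0.15 in CD4 and CD8 cells of the spleen, then CD4 and CD8 cells of the tumor. Of 12 partner genes for GABP and mitochondrial transcription, 11 were tested, none rose in any population, and 1 fell in spleen CD8 cells. That gene was Esrra, an orphan nuclear receptor that also acts on mitochondrial genes, at 17.7 ± 0.324 CPM with LCL161, against 28.0 ± 2.65 CPM with vehicle (log2 -0.67 ± 0.16, adjusted p = 0.017, edgeR's quasi-likelihood test). Gabpa, the DNA-binding alpha subunit, is on this list and did not pass in any population.

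Med11 encodes a subunit of the head module of Mediator, the complex that links transcription factors to RNA polymerase II. It lies at chr11:70451919-70453727 on the plus strand. Med11 was at 78.7, 51.8 and 62.1 CPM in spleen CD4 LCL161 libraries, against 36.0, 33.7 and 34.0 CPM with vehicle. Spleen CD8 libraries held 74.1, 71.3 and 89.0 CPM with LCL161, against 35, 33.5 and 39.4 CPM with vehicle. In tumor CD4 cells it was at 81.9, 73.2 and 64.3 CPM with LCL161, against 49.2, 53.2 and 43.3 CPM with vehicle. The gap was narrowest there, and the tumor CD4 vehicle mean was the highest of the 4 vehicle means. Tumor CD8 cells had 79.7, 70.3 and 70.5 CPM of Med11 with LCL161, against 40.2, 41.9 and 41.3 CPM with vehicle. The changes were 0.89 ± 0.14 in spleen CD4, 1.12 ± 0.14 in spleen CD8, 0.59 ± 0.14 in tumor CD4 and 0.84 ± 0.14 in tumor CD8. The 4 LCL161 group means, from 64.2 to 78.2 CPM, overlapped their neighbours in the order of levels. Of 32 other Mediator genes tested, none passed in spleen CD4, tumor CD4 or tumor CD8 cells. In spleen CD8 cells Med10, of the middle module, rose to 39.8 ± 8.57 CPM, against 28.8 ± 0.607 CPM with vehicle (log2 0.47 ± 0.14, adjusted p = 0.0495, edgeR). Med13l, of the kinase module, fell to 14.9 ± 4.22 CPM, against 34.5 ± 1.84 CPM with vehicle in the same cells (log2 -1.21 ± 0.28, adjusted p = 0.0151, edgeR). The list median was between -0.09 and 0.03 in the 4 populations.

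Ordering the 8 group means of each gene showed how far treatment, tissue and lineage set them apart. Gabpb1 ran from 118 ± 27.5 CPM in tumor CD4 LCL161 to 44.3 ± 2.42 CPM in spleen CD8 vehicle (SD, n = 3 each), and neighbours did not overlap in 3 of 7 pairs, the highest of them being tumor CD8 LCL161 above spleen CD8 LCL161. For Med11 it was 2 of 7 pairs, both among vehicle groups, with tumor CD4 above tumor CD8 and that above spleen CD8. Rap2b was free of overlap in 2 pairs, where spleen CD4 vehicle stood above spleen CD8 LCL161 and where tumor CD4 LCL161 stood above tumor CD8 LCL161, the lowest group. Sdhaf1 had 2 such pairs, on either side of spleen CD4 vehicle, and Pex16 had 1, between the CD4 and CD8 vehicle groups of the spleen. Prdx6 had 3, and its 4 tumor groups held the 4 highest means.

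**Figure D2:**
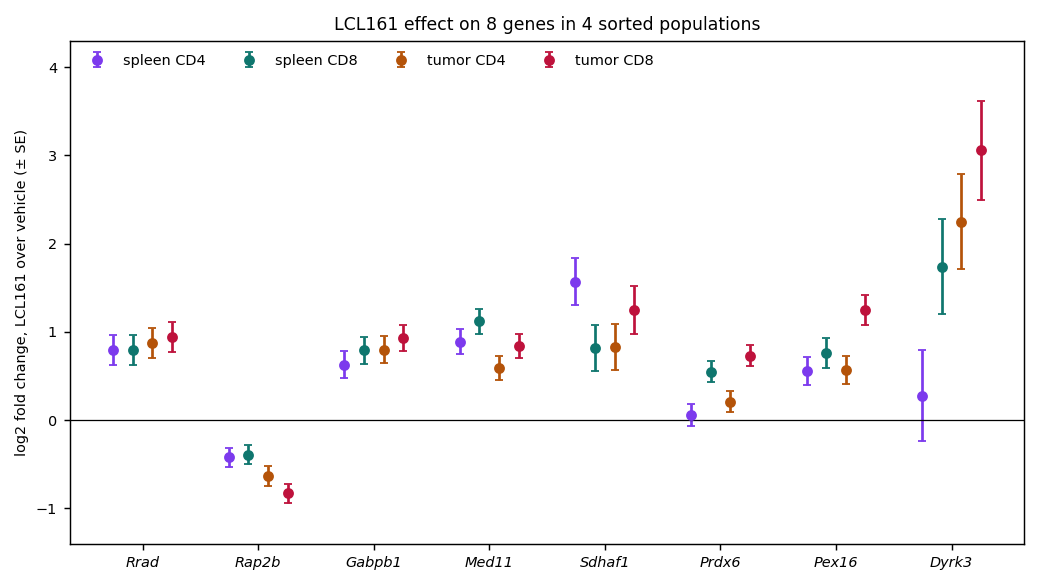
Fitted log2 change of each of the 8 genes, LCL161 over vehicle, in 4 sorted populations, with the standard error as whiskers. Rrad and Gabpb1 have similar points in every population, Rap2b lies below 0 throughout, and Dyrk3 spans the widest range, from 0.28 in spleen CD4 to 3.06 in tumor CD8.

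Sdhaf1 encodes an assembly factor that helps insert iron-sulfur clusters into the Sdhb subunit of succinate dehydrogenase, complex II of the respiratory chain. The gene is a single exon at chr7:30321406-30323895 on the minus strand. Sdhaf1 was at 70.5, 53.8 and 29.9 CPM in spleen CD4 LCL161 libraries, against 18.6, 16.1 and 17 CPM with vehicle. The LCL161 libraries of that group spread widely, yet the lowest still stood above all 3 vehicle libraries. In spleen CD8 cells Sdhaf1 was at 20.3, 20.6 and 24.5 CPM with LCL161, against 11.4, 13.8 and 11.8 CPM with vehicle. Tumor CD4 cells had 46.8, 42.6 and 29.0 CPM with LCL161, against 22, 20.9 and 23.7 CPM with vehicle. Tumor CD8 cells had 29.9, 25.6 and 16.3 CPM of Sdhaf1 with LCL161, against 7.5, 11.6 and 11.2 CPM with vehicle. Replicate 3 was the lowest LCL161 library in all but spleen CD8, where it was the highest. The changes were 1.57 ± 0.27 in spleen CD4, 0.82 ± 0.26 in spleen CD8, 0.83 ± 0.26 in tumor CD4 and 1.25 ± 0.27 in tumor CD8. Of 7 other complex II genes, all tested, 1 passed in 1 population. Sdhb, the iron-sulfur subunit, rose to 236 ± 16.8 CPM in spleen CD8 LCL161 libraries, against 165 ± 1.41 CPM with vehicle (log2 0.51 ± 0.12, adjusted p = 0.0169, edgeR's quasi-likelihood test). The list median was 0.21, 0.22, 0.14 and 0.11 in CD4 and CD8 cells of the spleen, then CD4 and CD8 cells of the tumor.

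Sdhaf1 and Rap2b each enclose an annotated gene on the other strand. E130208F15Rik, of 1733 bases, lies wholly within the Sdhaf1 gene, and B430305J03Rik, of 3702 bases, lies wholly within Rap2b. Over 24 libraries the count of E130208F15Rik was 0.527 to 0.599 times that of Sdhaf1, with a median of 0.563. B430305J03Rik was at 0.502 to 0.593 times Rap2b, with a median of 0.545. The deposited Sdhaf1 count was not whole in 19 of 24 libraries, while its difference from the E130208F15Rik count was whole in all 24, within 0.015 counts. Rap2b was not whole in 13 libraries, and its difference from B430305J03Rik was whole in 20. E130208F15Rik had log2 values of 1.58, 0.81, 0.83 and 1.28, LCL161 over vehicle, in CD4 and CD8 cells of the spleen, then CD4 and CD8 cells of the tumor, and B430305J03Rik had -0.37, -0.40, -0.64 and -0.76. How strand was handled in the counting is not stated, so reads of each pair cannot be told apart and the levels of both members are uncertain by that share. Rrad overlaps Gm33023 on the other strand by 496 bases, and that gene was counted at 0.0703 to 0.117 times Rrad. Gm27003 over Gabpb1 averaged 1.19% of its level, and Large2 over Pex16 averaged 1.46% of its level. Prdx6b, a close copy of Prdx6 at chr2:80292472-80295356, was under 1 CPM in every library, at 0.0457 to 0.674 CPM.

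**Figure D3:**
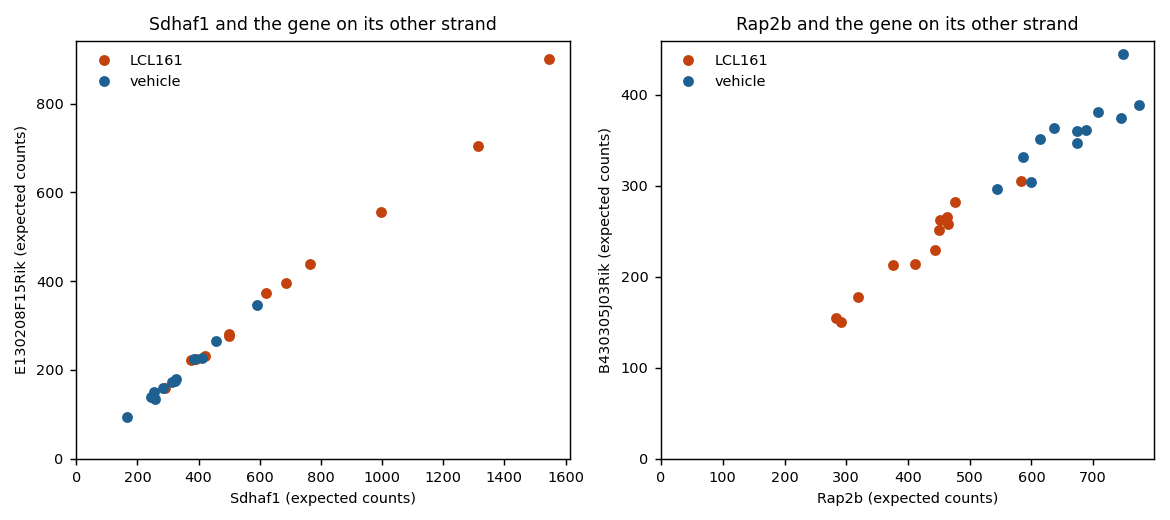
Expected counts of Sdhaf1 (left) and Rap2b (right) against those of the gene on the opposite strand within each, in 24 libraries coloured by treatment. Points lie along a line through 0 in both panels, with count ratios of 0.527 to 0.599 and 0.502 to 0.593.

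Prdx6 encodes a peroxiredoxin with a single active cysteine, which reduces peroxides including those of phospholipids and also has phospholipase A2 activity. It lies at chr1:161240112-161251219 on the minus strand. Prdx6 had the highest level of the 8 genes per length, with a mean of 62.4 CPM per kilobase of merged exons over 24 libraries, and Dyrk3 the lowest, with 2.59. Prdx6 was at 158, 162 and 209 CPM in spleen CD4 LCL161 libraries, against 160, 180 and 168 CPM with vehicle, and these groups overlapped. In spleen CD8 cells it was at 214, 236 and 305 CPM with LCL161, against 171, 180 and 166 CPM with vehicle. The CD8 groups of the spleen were apart, with replicate 3 the highest. Tumor CD4 cells had 475, 452 and 432 CPM of Prdx6 with LCL161, against 386, 404 and 383 CPM with vehicle. Tumor CD8 cells had 517, 489 and 464 CPM with LCL161, against 270, 318 and 299 CPM with vehicle. The changes were 0.06 ± 0.12 in spleen CD4, 0.55 ± 0.12 in spleen CD8, 0.21 ± 0.12 in tumor CD4 and 0.73 ± 0.12 in tumor CD8, so that both CD4-sorted values lay below both CD8-sorted ones. Whether they differ was not tested, since these contrasts chose the genes. Without spleen CD4 LCL161 replicate 3 the spleen CD4 value was -0.09. Of 22 other peroxide and thiol enzymes, all tested, 1 rose in spleen CD4 cells and 1 fell in tumor CD4 cells, where 0.431% and 0.322% of all tested genes passed in either direction. Prdx2, a peroxiredoxin of the cytosol, rose to 190 ± 54.2 CPM in spleen CD4 LCL161 libraries, against 101 ± 7.1 CPM with vehicle (log2 0.90 ± 0.17, adjusted p = 0.0314, edgeR). Hmox1, a heme-degrading enzyme that macrophages express, fell to 36.9 ± 15.1 CPM in tumor CD4 LCL161 libraries, against 162 ± 97.7 CPM with vehicle (log2 -2.13 ± 0.44, adjusted p = 0.0461, edgeR).

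Pex16 encodes a peroxisomal membrane protein needed to build peroxisome membranes. It lies at chr2:92374676-92381217 on the plus strand. Pex16 was at 58.6, 35.6 and 35.9 CPM in spleen CD4 LCL161 libraries, against 27.0, 32.5 and 29.0 CPM with vehicle. Spleen CD8 cells had 35.1, 35.5 and 41.7 CPM of Pex16 with LCL161, against 22.9, 22.3 and 21.2 CPM with vehicle. Replicate 1 of spleen CD4 LCL161 stood far above the other 2, which were close to the vehicle libraries. In tumor CD4 cells it was at 57.2, 50.5 and 45.6 CPM with LCL161, against 29.8, 40.3 and 33.5 CPM with vehicle. Tumor CD8 cells had 58.8, 49.4 and 49.3 CPM with LCL161, against 21.4, 22.5 and 22 CPM with vehicle. The tumor CD8 gap was the widest of the 4, and all groups were apart. The changes were 0.56 ± 0.16, 0.76 ± 0.17, 0.57 ± 0.16 and 1.25 ± 0.17 in CD4 and CD8 cells of the spleen, then CD4 and CD8 cells of the tumor. Without spleen CD4 LCL161 replicate 1 the spleen CD4 value was 0.27. Of 16 other peroxins, 15 were tested and 1 passed. Pex26, which anchors the peroxin ATPases to the membrane, fell to 6.01 ± 0.123 CPM in spleen CD8 LCL161 libraries, against 16.0 ± 0.63 CPM with vehicle (log2 -1.42 ± 0.22, adjusted p = 0.00157, edgeR).

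Dyrk3 encodes a dual-specificity kinase that dissolves stress granules and other condensates. It lies at chr1:131127455-131138340 on the minus strand. Dyrk3 was at 4.57, 2.58 and 11.2 CPM in spleen CD4 LCL161 libraries, against 5.92, 3.37 and 5.86 CPM with vehicle, with overlap. In spleen CD8 cells it was at 3.42, 8.66 and 15.9 CPM with LCL161, against 2.64, 3.08 and 2.67 CPM with vehicle. The lowest of these LCL161 libraries was barely above the vehicle libraries. In tumor CD4 cells Dyrk3 was at 20.3, 16.2 and 13.7 CPM with LCL161, against 2.89, 3.86 and 3.77 CPM with vehicle. Tumor CD8 cells had 27.8, 10.9 and 20.9 CPM of Dyrk3 with LCL161, against 2.05, 3.78 and 1.31 CPM with vehicle. Both tumor populations were far apart between treatments, and no neighbouring pair in the order of the 8 group means was free of overlap. The changes were 0.28 ± 0.52 in spleen CD4, 1.74 ± 0.54 in spleen CD8, 2.25 ± 0.54 in tumor CD4 and 3.06 ± 0.56 in tumor CD8, with the widest errors of the 8 genes at the lowest level. LCL161 was 4.76 times vehicle in tumor CD4 and 8.31 times vehicle in tumor CD8. Without replicate 3 of the LCL161 group the value was -0.51 in spleen CD4 and 1.08 in spleen CD8. Of 13 other DYRK, HIPK and CLK kinases, 12 were tested, none rose, and 1 fell in spleen CD8 cells. Hipk2, a nuclear kinase related to the DYRK family, fell to 28.2 ± 3.36 CPM with LCL161, against 76.9 ± 2.59 CPM with vehicle (log2 -1.45 ± 0.34, adjusted p = 0.0162, edgeR).

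Taking the 7 lists of genes that work beside the members, 122 of 125 genes were tested. By the edgeR test, 1 rose and 0 fell in spleen CD4 cells, 2 rose and 6 fell in spleen CD8, 0 rose and 1 fell in tumor CD4, and 0 passed in tumor CD8. Of all tested genes, 0.431%, 8.28%, 0.322% and 0.248% passed in the same order, so the 8 of 122 list genes in spleen CD8 were no larger a share than among all genes. Of 24 genes of the NF-kB circuit, 8 rose and 0 fell in spleen CD4, 11 rose and 2 fell in spleen CD8, 7 rose and 0 fell in tumor CD4, and 10 rose and 0 fell in tumor CD8, beside the same shares of all tested genes. The circuit's medians were 0.59, 0.42, 0.76 and 0.66 in the same order. Its genes were already known to change in these samples, so their count adds no independent evidence of direction. Without spleen CD4 LCL161 replicate 1, 0 of all tested genes passed in spleen CD4. The same held in tumor CD4 without tumor CD4 vehicle replicate 2. All list calls in these 2 populations, those of Prdx2 and Hmox1 included, were therefore lost without 1 library.

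**Figure D4:**
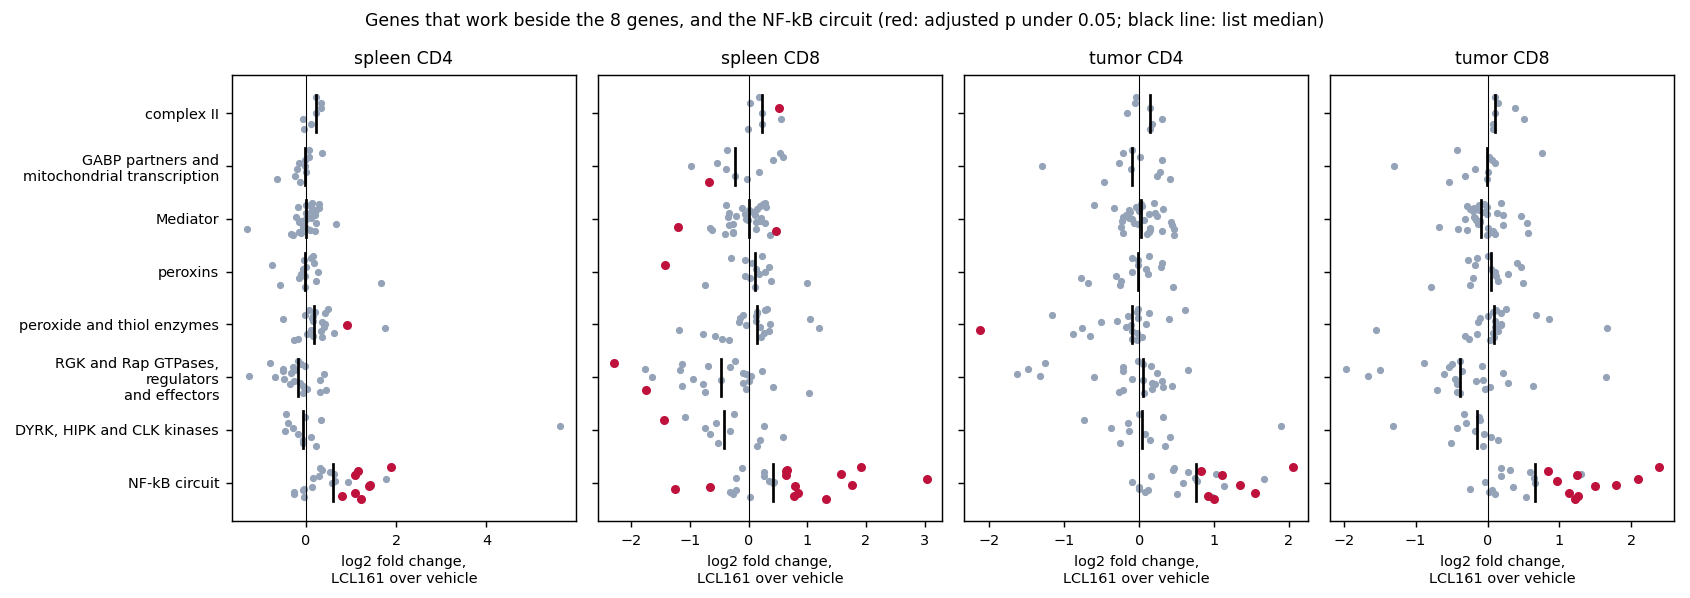
Log2 change, LCL161 over vehicle, of 122 tested genes in 7 lists that work beside the 8 genes and of 24 NF-kB circuit genes, in 4 populations; red points passed an adjusted p of 0.05 and black lines are list medians. Medians of the 7 upper lists lie between -0.47, for the GTPase list in spleen CD8 cells, and 0.22, for complex II in the same cells, while the NF-kB list has medians of 0.42 to 0.76.

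Markers of other cells also moved with treatment in these sorts. In spleen CD8 libraries the summed level of 10 conventional dendritic cell markers was 782 to 1350 CPM with LCL161, against 3250 to 3520 CPM with vehicle, and 9 of the 10 lay below without overlap. The 10 T cell markers summed to 3980 to 4920 CPM with LCL161, against 2860 to 3240 CPM with vehicle, with 7 of 10 above. Gamma delta T cell markers summed to 1990 to 2740 CPM, against 1360 to 1500 CPM, with 4 of 7 counted genes above. In the same libraries mitochondrial transcripts made up 2.1 to 2.37% of counts with LCL161, against 1.46 to 1.52% with vehicle. Mitochondrial shares were also apart in spleen CD4 libraries, at 1.93 to 2.38% with LCL161, against 1.82 to 1.91% with vehicle, and in tumor CD8 libraries, at 1.37 to 1.42%, against 1.21 to 1.35%, and overlapped in tumor CD4 libraries, at 1.35 to 1.39%, against 1.22 to 1.43%. Macrophage markers summed to 884 to 1970 CPM in tumor CD4 LCL161 libraries, against 3480 to 8560 CPM with vehicle, and 12 of 14, Hmox1 among the list, lay below. In tumor CD8 libraries they summed to 802 to 1380 CPM with LCL161, against 1870 to 2800 CPM with vehicle, with 11 of 14 below. In spleen CD4 libraries gamma delta T cell markers summed to 76.5 to 187 CPM with LCL161, against 298 to 1630 CPM with vehicle, with 5 of 7 counted genes below. Also in spleen CD8 libraries, NK cell markers summed to 930 to 2000 CPM with LCL161, against 405 to 863 CPM with vehicle, but only 2 of 8 lay above without overlap. There the 8 mast cell and basophil markers summed to 42.4 to 83.7 CPM, against 132 to 176 CPM, with 3 of 8 below. In tumor CD8 libraries that mast cell sum went the other way, at 40.5 to 123 CPM with LCL161, against 20.5 to 36 CPM with vehicle, with 1 marker above and 1 below. In tumor CD4 libraries 12 neutrophil markers summed to 96.4 to 106 CPM with LCL161, against 137 to 193 CPM with vehicle, with 6 of 12 below. The 6 erythroid markers there summed to 1.6 to 97.9 CPM, against 174 to 358 CPM, with 4 of 6 below. In spleen CD4 libraries the erythroid sum overlapped, at 195 to 11300 CPM with LCL161, against 254 to 3770 CPM with vehicle. Its part in the Prdx2 levels of those libraries was not tested. None of the markers in these lists was at 0 in all libraries of the population. The part of these cells in the values of the 8 genes and of the listed genes was not tested.

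Whether a member also differs between tissues was tested on the mean of both treatments. In CD4-sorted cells 3 of the 8 genes were higher in tumor than in spleen, namely Prdx6, Rrad and Med11, where 33.1% of all tested genes passed and 17% were higher. Prdx6 was at 383 to 475 CPM in 6 tumor libraries, against 158 to 209 CPM in 6 spleen libraries, a log2 difference of 1.28 ± 0.09 (adjusted p = 2.66e-08, edgeR's quasi-likelihood test with Benjamini-Hochberg adjustment). Rrad was at 52.0 to 117 CPM in tumor, against 22.6 to 49.4 CPM in spleen, a difference of 1.12 ± 0.12 (adjusted p = 2.05e-06, edgeR). Neither gene overlapped between the tissues, and both calls held under all 31 alternatives. The alternatives include the fits within vehicle or LCL161 libraries alone, which only describe. Med11 averaged 60.9 ± 14.9 CPM in tumor and 49.4 ± 18.4 CPM in spleen (SD, n = 6 each), with overlap, a difference of 0.34 ± 0.10 (adjusted p = 0.0105, edgeR). Within LCL161 libraries alone the Med11 difference was 0.19 and did not pass (adjusted p = 0.344, edgeR).

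In CD8-sorted cells Prdx6 and Gabpb1 were higher in tumor than in spleen, 2 of 8 genes, where 24% of all tested genes passed and 12.7% were higher. Prdx6 averaged 393 ± 109 CPM in tumor and 212 ± 52.9 CPM in spleen (SD, n = 6 each), a difference of 0.87 ± 0.09 (adjusted p = 2.96e-06, edgeR), and this held under all 31 alternatives. Gabpb1 averaged 75.9 ± 27.0 CPM in tumor and 60.6 ± 18.2 CPM in spleen, a difference of 0.31 ± 0.10 (adjusted p = 0.0374, edgeR). That call held in 15 of 31 alternatives, with adjusted p from 0.0168 to 0.309. It was lost without spleen CD8 vehicle replicate 1, 2 or 3, spleen CD8 LCL161 replicate 2 or 3, tumor CD8 vehicle replicate 1, 2 or 3, tumor CD8 LCL161 replicate 1 or 2, spleen CD4 vehicle replicate 3, spleen CD4 LCL161 replicate 2 or tumor CD4 LCL161 replicate 1. Rrad, with 56.3 ± 21.6 CPM in tumor and 48.4 ± 15.7 CPM in spleen, did not pass in CD8-sorted cells (0.19 ± 0.12, adjusted p = 0.264, edgeR).

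The tumor-over-spleen difference itself differed between CD8-sorted and CD4-sorted cells for 2 of 8 genes, Rrad and Prdx6, where 10.2% of all tested genes passed and 5.1% had a negative difference. For Rrad it was 0.19 in CD8-sorted and 1.12 in CD4-sorted cells, a difference of -0.92 ± 0.17 (adjusted p = 0.00242, edgeR). The value was -0.88 in LCL161 libraries and -0.97 in vehicle libraries. For Prdx6 it was 0.87 in CD8-sorted and 1.28 in CD4-sorted cells, a difference of -0.42 ± 0.12 (adjusted p = 0.0347, edgeR). The Prdx6 call held in 15 of 31 alternatives, with adjusted p from 0.0104 to 0.196. It held in 10 of the 24 fits that left out 1 library, and was lost without spleen CD4 vehicle replicate 1 or 3, spleen CD4 LCL161 replicate 2, spleen CD8 vehicle replicate 1, 2 or 3, spleen CD8 LCL161 replicate 3, tumor CD4 vehicle replicate 2, tumor CD4 LCL161 replicate 1 or 2, tumor CD8 vehicle replicate 1 or 3, or tumor CD8 LCL161 replicate 2 or 3.

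**Figure D5:**
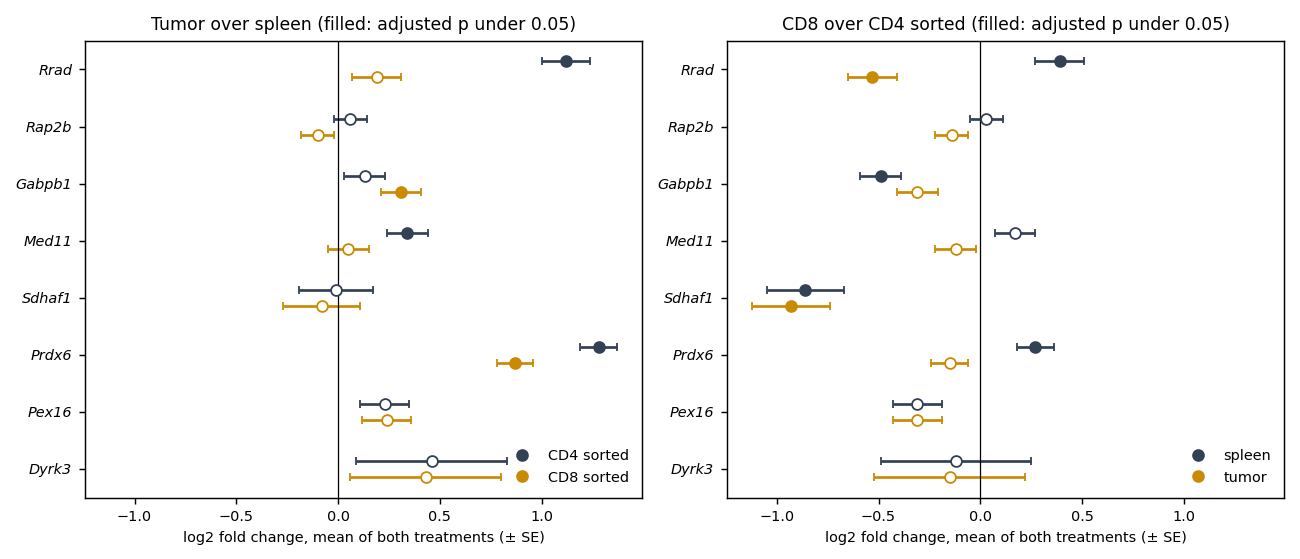
Log2 differences of the 8 genes, averaged over both treatments, for tumor over spleen (left, by sorted lineage) and CD8-sorted over CD4-sorted (right, by tissue), with standard errors; filled points passed an adjusted p of 0.05. Prdx6 and Rrad in CD4-sorted cells lie farthest to the right in the tissue panel, at 1.28 and 1.12, and Sdhaf1 farthest to the left in the lineage panel, at -0.86 in spleen and -0.93 in tumor.

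On the mean of both treatments, 4 of 8 genes differed between lineages in the spleen. Of all tested genes 27.6% passed there, 13.2% higher and 14.4% lower in CD8-sorted cells. Rrad averaged 48.4 ± 15.7 CPM in CD8-sorted and 37.0 ± 11.5 CPM in CD4-sorted cells (SD, n = 6 each), a difference of 0.39 ± 0.12 (adjusted p = 0.0198, edgeR). Prdx6 averaged 212 ± 52.9 CPM in CD8-sorted and 173 ± 19.6 CPM in CD4-sorted cells, a difference of 0.27 ± 0.09 (adjusted p = 0.024, edgeR). The Prdx6 difference was 0.51 within LCL161 libraries alone (adjusted p = 0.00668, edgeR), and 0.03 within vehicle libraries alone, which did not pass (adjusted p = 0.938, edgeR). Both values use libraries whose LCL161 changes chose Prdx6 (0.55 in spleen CD8, 0.06 in spleen CD4), so they are no independent test. The averaged Prdx6 difference uses the same libraries and was carried by the LCL161 ones. It therefore does not show a lineage difference of Prdx6 apart from treatment. The other 2 genes were lower in CD8-sorted cells. Gabpb1 averaged 60.6 ± 18.2 CPM in CD8-sorted and 84.0 ± 20.7 CPM in CD4-sorted cells, a difference of -0.49 ± 0.10 (adjusted p = 0.00177, edgeR), which was -0.41 in LCL161 libraries (adjusted p = 0.0588, edgeR) and -0.57 in vehicle libraries (adjusted p = 0.0162, edgeR). Sdhaf1 was at 11.4 to 24.5 CPM in CD8-sorted and 16.1 to 70.5 CPM in CD4-sorted cells, a difference of -0.86 ± 0.19 (adjusted p = 0.00215, edgeR), which was -1.24 in LCL161 libraries and -0.48 in vehicle libraries (adjusted p = 0.265, edgeR). Within single treatments the Rrad difference was 0.39 with LCL161 (adjusted p = 0.121) and 0.40 with vehicle (adjusted p = 0.141, both edgeR), so neither passed alone. The averaged Rrad call was lost without spleen CD4 vehicle replicate 2 or spleen CD8 LCL161 replicate 3, and the Prdx6 call without spleen CD4 vehicle replicate 1, spleen CD4 LCL161 replicate 1 or 2, spleen CD8 vehicle replicate 2 or spleen CD8 LCL161 replicate 3.

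In the tumor 2 of 8 genes were lower in CD8-sorted cells, where 11.1% of all tested genes passed and 6.33% were lower. Sdhaf1 averaged 17 ± 8.88 CPM in CD8-sorted and 30.8 ± 11.2 CPM in CD4-sorted cells, a difference of -0.93 ± 0.19 (adjusted p = 0.00301, edgeR). Within LCL161 libraries alone it was -0.72 and did not pass (adjusted p = 0.152, edgeR), and within vehicle libraries alone it was -1.14 (adjusted p = 0.0197, edgeR). Rrad averaged 56.3 ± 21.6 CPM in CD8-sorted and 80.8 ± 28.6 CPM in CD4-sorted cells, a difference of -0.53 ± 0.12 (adjusted p = 0.00658, edgeR). Averaged over treatments, Rrad was thus lower in CD8-sorted than in CD4-sorted cells of the tumor and higher in those of the spleen. Within single treatments the Rrad difference in tumor was -0.50 with LCL161 (adjusted p = 0.126) and -0.57 with vehicle (adjusted p = 0.0646, both edgeR). Rap2b, Dyrk3 and Pex16 passed in none of the tissue and lineage comparisons averaged over treatments, and the estimates for Rap2b were all between -0.16 and 0.06. The averaged Pex16 difference between lineages in the tumor was -0.31 (adjusted p = 0.1, edgeR), against 0.04 within LCL161 libraries (adjusted p = 0.958) and -0.65 within vehicle libraries (adjusted p = 0.031, both edgeR). Such single-treatment values only describe, since they share libraries with the choice of the members.

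The sorts differed in other cell markers along these axes too. Markers of B cells and plasma cells, 10 in all, had a summed level of 95.3 to 168 CPM in tumor CD4 LCL161 and 121 to 739 CPM in tumor CD4 vehicle libraries, against 3370 to 5730 CPM in spleen CD4 LCL161 and 3680 to 6070 CPM in spleen CD4 vehicle libraries. The 14 macrophage markers ran the other way, at 884 to 8560 CPM in tumor CD4 and 255 to 502 CPM in spleen CD4 libraries. Gamma delta T cell markers summed to 2930 to 3480 CPM in tumor CD8 libraries, against 146 to 2630 CPM in tumor CD4 libraries. Their part in the tissue and lineage differences of the 8 genes was not tested.

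Over 24 libraries, Pearson's r of log2 CPM was positive for every pair of members without Rap2b and negative for every pair with it. Among the 28 pairs it was highest for Gabpb1 with Pex16, at 0.856. The lowest value without Rap2b was 0.161, for Sdhaf1 with Prdx6. With Rap2b, r ran from -0.33, for Prdx6, to -0.808, for Dyrk3. With the group means removed, Gabpb1 with Pex16 was at -0.0835 and Med11 with Pex16 at 0.74. Libraries share treatment, tissue and lineage, and the members were chosen on treatment, so these values only describe. The tested genes most like Rrad over 24 libraries were Actg1 (r = 0.917), Traf1 (0.908) and Ncf4 (0.89). For Gabpb1 they were Zc3h12a (0.938), Ciapin1 (0.906) and Tank (0.902), and for Med11 Tgif1 (0.907), Cdc123 (0.907) and Capzb (0.889). Sdhaf1 was nearest to Alkbh6 (0.889), which lies 7102 bases away, and Nfkbia (0.871) was also among its 3 nearest. Pex16 was nearest to Nfkbia (0.909), Tgif1 (0.904) and Taf10 (0.885). Prdx6 was nearest to Ptgs2 (0.934), Cav1 (0.93) and Il17a (0.929). Rap2b had lower likeness to any gene, with Plin3 (0.799), Vsir (0.773) and Lman2l (0.763), and Dyrk3 was nearest to Cdc123 (0.83), Nsmce2 (0.787) and Babam2 (0.783). Of these genes Traf1, Zc3h12a and Nfkbia are on the NF-kB circuit list. They and the members were known to change with LCL161, so their likeness only describes. With the group means removed, r was 0.324 for Rrad with Traf1 and 0.56 for Gabpb1 with Zc3h12a. For Nfkbia it was 0.408 with Sdhaf1 and 0.565 with Pex16.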

How the data were processed

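The authors deposited 1 table of expected counts per gene symbol for 24 libraries. Per the submitters' processing notes, adapters were trimmed with cutadapt and reads aligned to GRCm38 with STAR 2.7.3a. How reads were counted, with which annotation and with what strand setting, is not stated in the notes or labels. Counts were rounded before testing, because 52.7% of values above 0 are fractional. No pair of replicates agreed within sampling noise (chi-square per gene 13.03 to 134.9 over 24 pairs), and no library was left out. All columns were matched to samples by name.

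Genes were kept by filterByExpr (minimum count 10), scaled by TMM (factors 0.939 to 1.05) and fitted with edgeR 4.0.16 in R 4.3.3 (limma 3.58.1), as a robust quasi-likelihood model with 8 group means and 16 residual degrees of freedom. There were 4 contrasts of LCL161 against vehicle and 5 of tissue and lineage averaged over treatments, with Benjamini-Hochberg adjustment within each and a threshold of 0.05. Log levels for likeness used a prior count of 2. Alternatives were RLE scaling, no filter, 5 CPM in 3 libraries, DESeq2 1.42.0, a replicate block, single treatments and each library left out. The single-treatment fits share values with the choice of the members, so they only describe. Steps were tested on simulated data.

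The members and lists were chosen with earlier results of these data known. Named beside the 8 members are list genes past the threshold (at most 3 per list and contrast), the 3 most alike genes per member by Pearson's r among genes averaging at least 5 CPM, overlapping or near genes, and Prdx6b. For Sdhaf1, 1 of the 3 alike genes is not reported here. Coordinates are from GENCODE M21, which holds 53522 of the symbols, and promoters from RefSeq. Python 3.11.15 with pandas 2.3.3, numpy 2.4.6 and matplotlib 3.10.9 made the tables and plots.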

Additional observations from a re-analysis of the deposited data

Results flagged for a closer look

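The tumor-over-spleen difference of Rrad differed between lineages by a test of that difference. It was lower in CD8-sorted than in CD4-sorted cells by a log2 value of -0.92 ± 0.17 (adjusted p = 0.00242, edgeR's quasi-likelihood test). This passed in all 31 alternatives, among them the single-treatment fits, which only describe. Prdx6 showed the same sign, at -0.42 ± 0.12 (adjusted p = 0.0347, edgeR), and passed in 15 of 31 alternatives.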

How the results depend on the processing

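The 8 genes kept the direction of their LCL161 change under RLE scaling, either other filter, DESeq2, the replicate block and every left-out library, apart from Prdx6 (-0.09) and Dyrk3 (-0.51) in spleen CD4 cells without LCL161 replicate 3. Over the left-out libraries these 2 values ran from -0.09 to 0.13 and from -0.51 to 0.63. Counts over all genes moved more. The 87 genes past the threshold in spleen CD4 became 49 without a filter, 56 with the replicate block and 648 by DESeq2. Those of spleen CD8 went to 990 without a filter and 2571 by DESeq2, against 1670. The 65 of tumor CD4 became 26 without a filter, 107 at 5 CPM and 707 by DESeq2, and the 50 of tumor CD8 became 273 by DESeq2. Leaving out 1 library gave 0 to 220 genes in spleen CD4, 246 to 2004 in spleen CD8, 0 to 375 in tumor CD4 and 4 to 72 in tumor CD8.

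With LCL161 libraries alone and with vehicle libraries alone, fewer samples entered each side: 4306 and 3307 genes passed for tumor over spleen in CD4-sorted cells (6674 with both), 1770 and 2986 in CD8-sorted cells (4849), 3515 and 2302 for CD8 over CD4 in the spleen (5562), 580 and 821 in the tumor (2230), and 664 and 664 for the difference of tissue effects (2061, and 3125 by DESeq2). Leaving out 1 library gave 5720 to 7327, 3575 to 5453, 4518 to 5873, 1501 to 2692 and 1400 to 2963 in that order. The cause of these shifts was not tested. Whether replicate numbers pair the libraries was not settled. Same-numbered libraries correlated over 0.1 in 22 of 84 pairs (median r 0.0173), but these pairs also join vehicle to LCL161 libraries. Spleen and tumor CD8 LCL161 libraries had r of 0.219, 0.282 and 0.158 for equal numbers, and -0.273 to -0.0119 for unequal ones. For spleen and tumor CD4 vehicle libraries, equal numbers gave 0.147, -0.228 and -0.31. The main tests took all libraries as unpaired. The block changed the side of the threshold for no member.

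Pex16 passed for CD8 over CD4 in the spleen under RLE scaling (-0.32), at 5 CPM (-0.31) and by DESeq2 (-0.32), and in the tumor with vehicle libraries alone (-0.65), and Gabpb1 in the tumor at 5 CPM (-0.32) and by DESeq2 (-0.32). Among the 8 genes Dyrk3 had the lowest mean CPM per kb and the widest standard errors of the LCL161 changes, 0.52 to 0.56.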
